A study of Mus musculus with 4 samples.

Results

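Rpph1, Rmrp and Terc are the 3 genes described here, taken by symbol from a table of 47069 mouse gene IDs, and each symbol matched 1 row. Rpph1 is the RNA of ribonuclease P, Rmrp the RNA of ribonuclease MRP and Terc the RNA of telomerase. Exosomes that tumour pieces gave off during 12 h in medium without serum supplied RNA for 2 libraries, and the primary tumours themselves supplied RNA for another 2. In both groups the tumours grew from Lewis lung carcinoma (LLC) cells, an established mouse lung carcinoma line, put under the skin of C57BL/6 mice and taken after 3 weeks. The labels name no genetic change or drug in either group, and the question was which gene signatures differ between a tumour and its exosomes. The exosomes for RNA were taken down with a precipitation reagent and not by ultracentrifugation, and the labels do not say which cells of the tumour pieces had released them.

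Ribonuclease P is an RNA-protein enzyme that cuts the leader from the 5' end of precursor transfer RNAs, and its RNA carries the catalytic activity. Ribonuclease MRP, a relative that shares most of its proteins, cuts precursor ribosomal RNA in the nucleolus, and changes in human RMRP cause cartilage-hair hypoplasia. Telomerase adds DNA repeats to chromosome ends, with Terc as the template that the reverse transcriptase Tert copies, and the 3' part of Terc is a box H/ACA domain bound by dyskerin (Dkc1). Rpph1 and Rmrp are made by RNA polymerase III from promoters that lie before the gene, while Terc is made by RNA polymerase II.

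The sequences below are those of the GENCODE M21 transcripts on build GRCm38, and they show the RNAs that the counts stand for. All 3 genes lie on the minus strand, each as a single exon. Rpph1 spans chr14:50807449-50807767 and its first 300 of 319 bases are given, with capitals for the longest stretch that it repeats, 21 bases standing in tandem from bases 182 and 203. Rmrp spans chr4:43492788-43493058 and is given whole at 271 bases, with capitals for the longest stretch it shares with Terc. Terc spans chr3:96414437-96414859, 423 bases, of which the first 130 and the last 60 are given. In its first part the capitals mark CCTAACCCT, which holds the template for the telomere repeat, and the 9 bases shared with Rmrp, and in its last part they mark the ACA box.
Rpph1: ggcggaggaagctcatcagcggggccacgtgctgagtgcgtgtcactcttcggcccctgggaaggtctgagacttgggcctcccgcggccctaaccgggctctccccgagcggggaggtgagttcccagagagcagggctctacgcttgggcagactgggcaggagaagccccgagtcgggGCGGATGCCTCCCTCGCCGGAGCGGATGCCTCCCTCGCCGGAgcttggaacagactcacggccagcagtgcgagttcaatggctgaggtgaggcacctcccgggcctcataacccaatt
Rmrp: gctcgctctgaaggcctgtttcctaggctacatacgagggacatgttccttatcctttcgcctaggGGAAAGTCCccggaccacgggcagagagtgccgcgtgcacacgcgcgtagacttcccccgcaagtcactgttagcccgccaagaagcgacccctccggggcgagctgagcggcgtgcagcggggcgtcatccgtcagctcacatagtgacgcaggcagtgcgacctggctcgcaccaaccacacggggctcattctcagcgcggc
Terc, 5' part: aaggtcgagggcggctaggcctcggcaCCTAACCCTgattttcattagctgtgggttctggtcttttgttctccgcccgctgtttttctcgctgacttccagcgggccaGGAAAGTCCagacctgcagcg
Terc, 3' end: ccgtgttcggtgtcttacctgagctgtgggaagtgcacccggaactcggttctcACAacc

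The 3 RNAs are rich in G and C, with 67.1% in Rpph1, 64.2% in Rmrp and 67.1% in Terc. On the transcribed strand, CCTAACCCT began at base 28 of Terc and was in neither of the other RNAs, and 0.0908% of the 16517 annotated transcripts of 250 to 450 bases hold it. The annotated Terc starts 26 bases before the RefSeq model of 397 bases, which therefore begins next to the template. Terc ends in ACA and 3 further bases, as do 1.73% of transcripts of that length and 72.5% of the 51 annotated transcripts with a Snora or Scarna symbol. The run TTTT, the signal at which RNA polymerase III stops, was absent from Rpph1 and Rmrp and found at bases 39, 64, 83 and 84 of Terc, where the last 2 matches overlap. Of transcripts of 250 to 450 bases, 58.8% hold it. The deposited counts and FPKM give back lengths of 319, 271 and 423 bases for Rpph1, Rmrp and Terc, so the authors counted over gene models of these lengths.

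The 2 exosome libraries totalled 305751 and 217201 counts and the 2 tumour libraries 14543691 and 10849811. Thus 1 count is worth 3.27 and 4.60 CPM in exosomes and 0.0688 and 0.0922 CPM in tumour. The labels call the libraries replicates without naming their mice, so a p-value reflects the spread among these 4 libraries, which may be technical. The labels name no molecular identifiers, so amplified reads may not be independent molecules, and the intervals below are exact Clopper-Pearson 95% intervals that cover counting error only. In bulk RNA, fewer cells of a type and less RNA per cell cannot be told apart. Messenger RNA was thinly counted, and the 6 carcinoma markers summed to 111.2 and 87.5 CPM in exosomes and 11.4 and 7.83 CPM in tumour. Nearly all of this was Vim, with 33 and 18 counts in exosomes and 153 and 81 in tumour. The sum is thus close to a value of Vim alone and is not read as a carcinoma signal. Krt18 had 1 and 1 counts in exosomes and 11 and 4 in tumour, Krt8 had 2 counts in 1 tumour library, and Epcam, Cdh1 and Krt19 had none. The 4 haemoglobin genes together had 82 and 102 counts in exosomes and 1642 and 873 in tumour, which is 268.2 and 469.6 CPM against 113 and 80.5 CPM. Of them Hba-a1 and Hba-a2 were called lower with TMM, at −1.08 and −1.04 on the log2 scale (edgeR adjusted p = 0.00928 for both), and no gene of the other marker lists was called. The 6 macrophage markers summed to 9.81 and 36.8 CPM in exosomes and 4.33 and 4.06 CPM in tumour, from 3 and 8 counts against 63 and 44. The 3 neutrophil markers summed to 49.1 and 50.6 CPM in exosomes and 3.71 and 0.922 CPM in tumour, from 15 and 11 counts against 54 and 10. Endothelium markers summed to 9.81 and 18.4 CPM in exosomes and 0.963 and 0.737 CPM in tumour. They had 3 and 4 counts in exosomes against 14 and 8. Fibroblast markers summed to 16.4 and 27.6 CPM in exosomes and 2.20 and 1.38 CPM in tumour. Their counts were 5 and 6 in exosomes against 32 and 15. On so few exosome counts, no direction is read from the macrophage, endothelium and fibroblast sums. Of the T and NK cell markers, Nkg7 had 1 count in 1 exosome library, and Cd3e, Cd8a and Cd4 were at 0 in all 4 libraries. The part of these cell types in the values below was not tested. The 5 listed genes whose proteins mark exosomes had 3 and 2 counts in exosomes and 33 and 28 in tumour. That is 9.81 and 9.21 CPM against 2.27 and 2.58 CPM. Most of the exosome counts came from Pdcd6ip, with 2 and 2 in exosomes and 12 and 10 in tumour. Cd63 and Cd81 had no count in either exosome library and 4 to 8 in each tumour library, too few to expect counts at the exosome depth.

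Rpph1 was the gene with the most counts in both exosome libraries. It had 85389 and 46908 counts in exosomes, against 1783 and 1094 in the far deeper tumour libraries. As a share of all gene counts this was 27.9% (95% interval 27.8% to 28.1%) and 21.6% (21.4% to 21.8%) in exosomes, and 0.0123% (0.0117% to 0.0128%) and 0.0101% (0.00949% to 0.0107%) in tumour. The groups did not overlap, and the lowest exosome share was 1762 times the highest tumour share. Per length, Rpph1 stood at 875471 and 677000 FPKM in exosomes and at 384 and 316 FPKM in tumour (FPKM is the deposited count scaled to gene length and library total). By FPKM it ranked 1st in both exosome libraries and 174th and 183rd in tumour. In edgeR's quasi-likelihood test with TMM scaling, which sets differences relative to the typical gene tested, Rpph1 rose in exosomes by 8.34 on the log2 scale (SE 0.33, edgeR adjusted p = 3.41e-07).

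Rmrp followed the same direction at a lower level. It had 3346 and 2212 counts in exosomes, against 396 and 230 in tumour, that is 1.09% (1.06% to 1.13%) and 1.02% (0.977% to 1.06%) of exosome counts and 0.00272% (0.00246% to 0.00300%) and 0.00212% (0.00185% to 0.00241%) of tumour counts. The 2 exosome libraries were close to each other, with a mean of 1.06% ± 0.0537 (SD, n = 2), and lay far above the tumour mean of 0.00242% ± 0.000426. Per length, Rmrp stood at 40382 and 37579 FPKM in exosomes and 100.5 and 78.2 FPKM in tumour, 32nd and 33rd in the exosome libraries and 253rd and 254th in the tumour libraries. Rmrp rose by 5.98 on the log2 scale (SE 0.22, edgeR adjusted p = 2.69e-07).

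Terc was the least abundant of the 3 per length in all 4 libraries. It had 173 and 217 counts in exosomes, against 73 and 53 in tumour, although the tumour group was 48.6 times as deep. The shares were 0.0566% (0.0485% to 0.0657%) and 0.0999% (0.0871% to 0.114%) of exosome counts and 0.000502% (0.000393% to 0.000631%) and 0.000488% (0.000366% to 0.000639%) of tumour counts. The 2 exosome shares differed 1.77-fold with intervals that do not meet, while the 2 tumour intervals overlap almost wholly. Replicate 2 had the higher exosome share of Terc, and replicate 1 had the higher exosome share of Rpph1. Per length, Terc stood at 1338 and 2362 FPKM in exosomes and 11.9 and 11.5 FPKM in tumour. Terc rose by 4.47 on the log2 scale (SE 0.22, edgeR adjusted p = 1.33e-06).

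**Figure D1:**
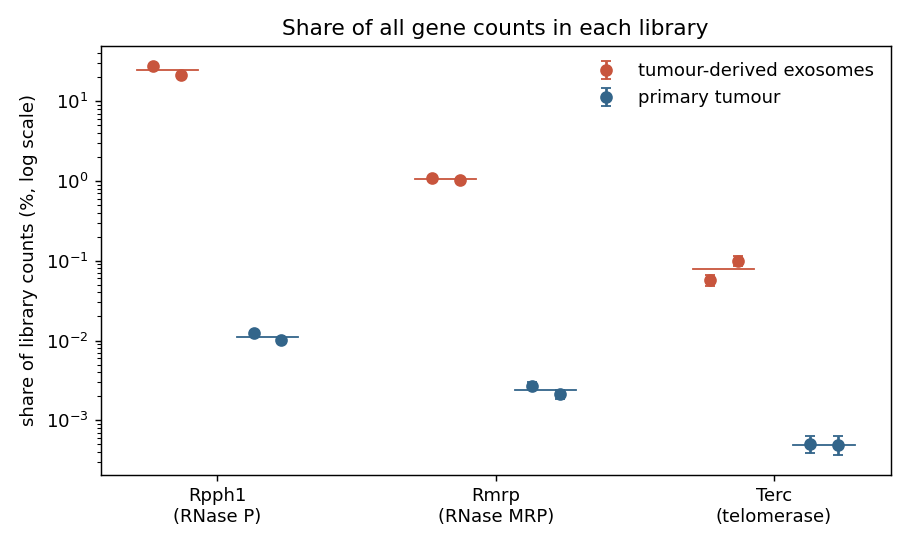
Share of all gene counts (%, log axis) of Rpph1, Rmrp and Terc in each library, with exact 95% intervals as bars and the mean of the 2 libraries as a line. Rpph1 stood at 27.9% and 21.6% in exosomes and at 0.0123% and 0.0101% in tumour, and for each RNA both exosome libraries lay above both tumour libraries.

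All 3 RNAs were therefore called higher in exosomes, where 16.0% of the 1442 genes tested were called higher and 22.1% lower. By size of the positive difference, Rpph1 ranked 5th, Rmrp 36th and Terc 74th of all 1442 genes tested. Among the 1236 tested genes with a count in every library, Rpph1 had the 2nd largest positive difference, Rmrp the 26th and Terc the 61st. The size of the differences rests on the scaling. Scaled by library totals alone, the differences were 11.11 for Rpph1, 8.76 for Rmrp and 7.28 for Terc, while the median of all genes tested moved to 2.75 from 0.018 with TMM, and 63.8% of genes were called higher and 11.5% lower. Leaving the counts of Rpph1 out of the library totals placed Rmrp at 9.18 and Terc at 7.68. Leaving out either tumour library gave the lowest values. Without tumour replicate 1 they were 6.21, 3.90 and 2.21 for Rpph1, Rmrp and Terc, and without tumour replicate 2 they were 5.99, 3.60 and 2.24, with 394 and 397 genes then tested and medians of −1.32 and −1.50 over them. Every one of the 15 alternatives called each of the 3 RNAs higher in exosomes, with a largest adjusted p of 0.000304 for Rpph1, 0.000235 for Rmrp and 0.00499 for Terc (by edgeR, DESeq2 or limma).

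**Figure D2:**
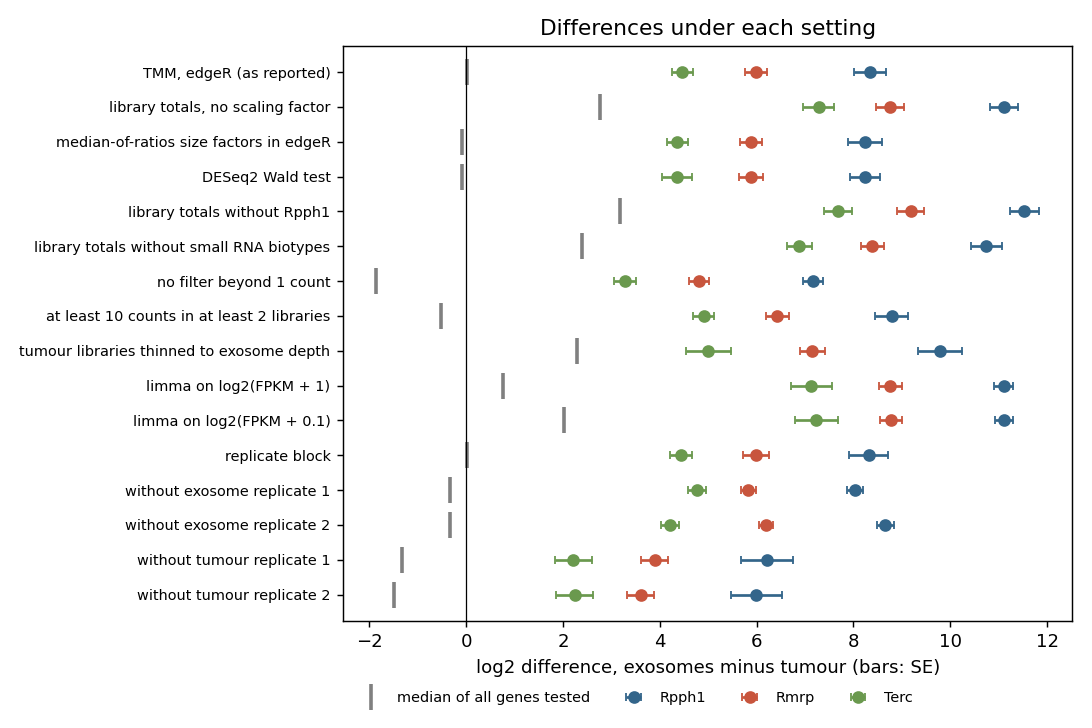
Log2 difference, exosomes minus tumour, of Rpph1, Rmrp and Terc under the reported setting and 15 alternatives, with SE as bars and the median of all genes tested as a grey mark. The order Rpph1, Rmrp, Terc holds in each row, and the lowest values, 5.99 for Rpph1, 3.60 for Rmrp and 2.21 for Terc, came without a tumour library.

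Ratios between the RNAs within a library do not depend on how libraries are scaled to each other. The ratio of Rpph1 to Rmrp per length, in FPKM, was 21.7 (20.9 to 22.4) and 18.0 (17.3 to 18.8) in exosomes, against 3.83 (3.43 to 4.28) and 4.04 (3.50 to 4.68) in tumour. Both exosome ratios lay above both tumour ratios, and the geometric mean ratio was 5.03-fold higher in exosomes. The ratio of Rmrp to Terc per length was 30.2 (25.9 to 35.4) and 15.9 (13.8 to 18.4) in exosomes, against 8.47 and 6.77 in tumour. It was 2.89-fold higher in exosomes, but the 2 exosome libraries differed from each other beyond counting error. The ratio of Rpph1 to Terc was 654 and 287 in exosomes and 32.4 and 27.4 in tumour, 14.5-fold higher in exosomes. A two-sided exact permutation test on the 4 log ratios gave p = 0.333 for each of the 3 pairs, the smallest p that this test can give with 2 libraries in each group. In all, 12 pairs were computed, these 3 and those with 3 other RNAs below. For Rpph1 to Rmrp and Rpph1 to Terc, the nearest exosome and tumour libraries lay further apart on a log scale than replicates did, whereas for Rmrp to Terc that gap was no larger than the one between the 2 exosome libraries.

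**Figure D3:**
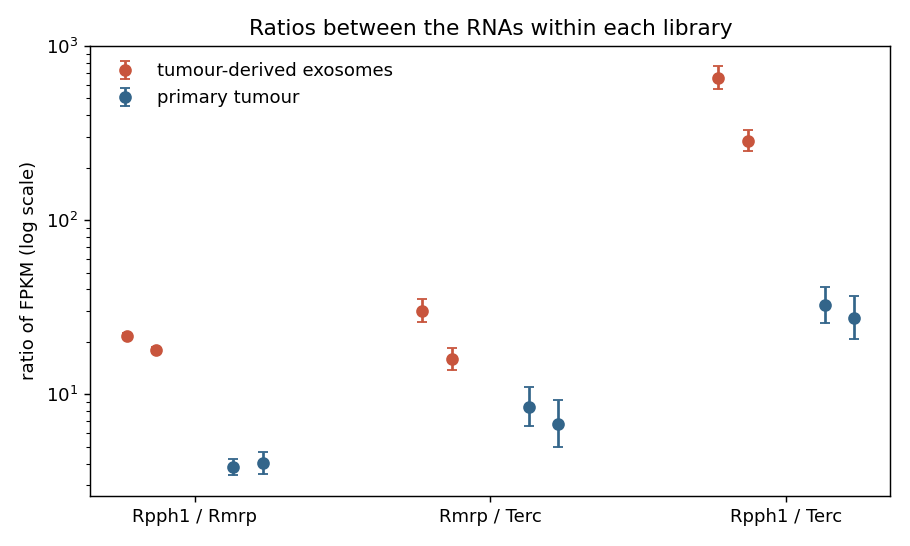
Ratio of FPKM (log axis) between pairs of the 3 RNAs within each library, with exact 95% intervals from the counts. Exosome ratios of Rpph1 to Rmrp were 21.7 and 18.0 and tumour ratios 3.83 and 4.04, and for all 3 pairs the exosome points lie above the tumour points.

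Other structured RNAs were set beside the 3 as a comparison, and of 9 listed 8 were tested, 5 of them higher and 3 lower with TMM (median 3.57, against 0.018 over all genes tested), while scaling by library totals gave 6 higher and 1 lower. The 7SK RNA (Rn7sk), which keeps P-TEFb from releasing paused RNA polymerase II and is made by RNA polymerase III from the same kind of promoter as Rpph1, had 15 and 11 counts in exosomes, against 5977 and 4393 in tumour. Rn7sk fell by 5.81 on the log2 scale with TMM (SE 0.20, edgeR adjusted p = 1.77e-07) and by 3.04 with library totals. Per length, the ratio of Rpph1 to Rn7sk was 5907 (3581 to 10555) and 4425 (2473 to 8864) in exosomes, against 0.310 and 0.258 in tumour. In the tumour libraries Rn7sk was thus the more abundant of the pair per length, and in exosomes Rpph1 was. For Terc and Rn7sk the ratio was 9.03 and 15.4 in exosomes, against 0.00956 and 0.00944 in tumour.

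The comparison with 7SL RNA (Rn7s1), the RNA of the signal recognition particle, separated Terc from the other two. Rn7s1 had 1209 and 905 counts in exosomes and 587 and 353 in tumour and rose by 4.01 (SE 0.17, edgeR adjusted p = 5.15e-07). Relative to it, per length, Rpph1 stood at 66.4 and 48.7 in exosomes and 2.86 and 2.91 in tumour, and Rmrp at 3.06 and 2.71 in exosomes and 0.747 and 0.721 in tumour. The ratio of Terc to Rn7s1 was 0.101 and 0.170 in exosomes and 0.0882 and 0.106 in tumour, and these groups overlap (exact permutation p = 0.667). Relative to Rnu1a1, a gene of the U1 small nuclear RNA whose reads are shared with other copies, Rpph1 stood at 8.92 and 5.48 in exosomes and 2.18 and 2.73 in tumour. Rmrp was below it in both groups, at 0.411 and 0.304 in exosomes and 0.569 and 0.676 in tumour, and so was Terc, at 0.0136 and 0.0191 in exosomes and 0.0672 and 0.0997 in tumour. The ratios of Rmrp and Terc to Rnu1a1 were therefore lower in exosomes, without overlap, while that of Rpph1 was higher. Each of these ratios whose groups were apart had an exact permutation p of 0.333, the smallest that test can give.

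The other listed structured RNAs fell on both sides. Rn7s2, a second 7SL copy that shares reads with Rn7s1, had 1183 and 872 counts in exosomes and 555 and 395 in tumour (log2 difference 3.93). The vault particle RNA Vaultrc5, an RNA polymerase III product, had 336 and 276 counts in exosomes and 276 and 195 in tumour and rose by 3.20 (SE 0.14, edgeR adjusted p = 5.16e-07). Rnu1a1 rose by 6.76 and the U2 RNA Rnu2-10 by 4.93. The Y RNAs, RNA polymerase III products bound by the Ro protein, did not share this direction. Rny3 had 18 and 13 counts in exosomes and 1249 and 1216 in tumour, with a difference of −3.52 (edgeR adjusted p = 1.55e-05) that was −0.74 with library totals (edgeR adjusted p = 0.0543). Rny1 had 365 and 284 counts in exosomes and 4148 and 2747 in tumour, and its direction flipped with the scaling, at −0.58 with TMM and 2.21 with library totals. The U6 RNA Rnu6, with 0 and 1 counts in exosomes and 4 and 5 in tumour, was not tested.

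Terc carries a box H/ACA domain, and with TMM the tested genes of that kind were mostly lower in exosomes. Of 51 genes with a Snora or Scarna symbol, most of them box H/ACA guides of RNA modification and some of mixed or other box type, 28 had a count and 22 were tested. With TMM, 1 was higher and 16 lower, with a median log2 difference of −3.51, against 0.018 over all genes tested. The 1 higher was Snora57, with 235 and 240 counts in exosomes and 879 and 656 in tumour and a log2 difference of 1.14 (SE 0.14, edgeR adjusted p = 0.000357). Its value was −0.048 with no filter on low counts (edgeR adjusted p = 0.862). Scaled by library totals, 5 of these 22 were higher and 7 lower, the median was −0.79, and the highest, Snora57 at 3.95, stayed below Terc at 7.28. Genes of the list entered the test through their counts in either group, and Scarna2, Scarna9 and Snora21, without an exosome count, through tumour alone. Others, such as Snora31 and Snora47, had a count in only 1 exosome library. Lower calls of such genes follow in part from this filter and are no separate support for a direction. The 22 are thus not the whole list, and their numbers describe these libraries only.

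The messenger RNAs of the proteins that bind the 3 RNAs were close to undetected. Of 11 genes for proteins of ribonucleases P and MRP, 8 had any count and none reached the filter for testing, with 1 and 1 counts over the list in exosomes and 8 and 3 in tumour (3.27 and 4.60 CPM against 0.550 and 0.277 CPM). Pop1, the largest of these proteins, had 0 and 0 counts in exosomes and 2 and 2 in tumour, Rpp21 had 0 and 0 against 1 and 1, and the 1 count in each exosome library came from Rpp14, which had none in tumour. Of 11 genes for telomerase proteins and assembly factors, 10 had a count and none was tested, with 4 and 1 counts in exosomes and 25 and 24 in tumour (13.1 and 4.60 CPM against 1.72 and 2.21 CPM). Tert, the reverse transcriptase, had no count in any library, which at 3 counts allows up to 9.81 and 13.8 CPM in the exosome libraries and 0.206 and 0.277 CPM in the tumour libraries. Dkc1, the protein of the H/ACA domain, had 0 and 0 counts in exosomes and 4 and 4 in tumour. Tep1 had 0 and 0 counts in exosomes against 5 and 6 in tumour, and Ruvbl2, a helicase of telomerase assembly, had 1 and 0 against 4 and 3.

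Genes around these enzymes were as thinly counted. The 7 shelterin genes, which bind telomere repeats, had 1 and 1 counts in exosomes and 15 and 18 in tumour, most of them from Terf2 with 0 and 1 in exosomes against 9 and 13, and from Terf1 with 0 and 0 against 3 and 4. The list summed to 3.27 and 4.60 CPM in exosomes and 1.03 and 1.66 CPM in tumour, and none of the 7 was tested. Of 12 genes of transfer RNA maturation found in the table, 11 had a count and 1 was tested, the transfer RNA exporter Xpot, with 2 and 1 counts in exosomes, 9 and 7 in tumour and a log2 difference of 0.40 (SE 0.62, edgeR adjusted p = 0.801). The list summed to 22.9 and 18.4 CPM in exosomes and 3.03 and 2.40 CPM in tumour. Ssb, the La protein that binds new RNA polymerase III transcripts, had 2 and 0 counts in exosomes and 19 and 11 in tumour. Of 23 genes for RNA polymerase III and its factors, 21 had a count and none was tested, with 9 and 6 counts over the list in exosomes and 54 and 53 in tumour, led by the TATA-binding protein Tbp with 0 and 0 in exosomes and 10 and 11 in tumour, and by the subunit Polr3g with 1 and 0 in exosomes and 8 and 7 in tumour. This list summed to 29.4 and 27.6 CPM in exosomes and 3.71 and 4.88 CPM in tumour. As shares of the library total, these protein lists summed higher in exosomes, but on only 1 to 9 counts in each exosome library. There 1 count is worth 3.27 or 4.60 CPM, so no direction is read from these sums. The median of all genes tested was higher too, but the filter acts on CPM, so that few exosome counts let a gene in. Xpot thus passed with 2 and 1 exosome counts, while Ssb, with 19 and 11 counts in tumour, did not. Apart from Xpot, no gene of these lists passed the filter.

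Near-copies of the 3 RNAs and overlapping genes took few or no counts. Besides Rpph1 and Rmrp, 20 annotated genes have the ribozyme biotype, and together they had 18 and 8 counts in exosomes and 1 and 0 in tumour, which is 2.11 and 1.71 per 10000 Rpph1 counts in exosomes and 5.61 and 0 in tumour. Rprl2, the RNase P RNA-like gene with most of them, had 13 and 6 counts in exosomes and 1 and 0 in tumour and is 85.6% identical to Rpph1 over 257 bases, so its reads may be shared with Rpph1. Rprl3 (86.0% identical) had 2 and 0 counts in exosomes and none in tumour, and Rprl1 (83.7%) had none in any library. The 21-base stretch in capitals above, which Rpph1 holds in 2 copies, is in none of the 3 Rprl transcripts, and each of these holds TTTT, which Rpph1 does not. A gene 81.1% identical to Terc over 408 bases, 1600017P15Rik, had no count in any library. Ccnb1ip1, a ubiquitin ligase gene on the same strand, has a transcript that shares 233 bases with Rpph1 without a mismatch, and it had no count in any library. How reads in the overlap were assigned is not given in the sources used here, so this 0 does not show which gene they came from. Parp2, which starts 73 bases from Rpph1 on the other strand, had 0 and 0 counts in exosomes and 1 and 1 in tumour. Ccdc107 overlaps Rmrp on the opposite strand and had no count. A second annotated gene with the symbol Rmrp, of the lincRNA biotype, overlaps it on the same strand. It is identical to Rmrp over 271 bases, but its gene ID is not among those with deposited counts. No annotated gene overlaps Terc, and the nearest, Gm21960 at 1075 bases, had 0 and 0 counts in exosomes and 0 and 1 in tumour. Whether counting used strand is not given in the sources used here, so reads of the 2 strands at Rmrp cannot be told apart.

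At 271 to 423 bases the 3 RNAs were longer than most small RNA genes tested. These counts stand beside 16.0% higher and 22.1% lower over all genes tested with TMM, and 63.8% and 11.5% with library totals. Of 116 tested small RNA genes under 100 bases, 29 were higher in exosomes and 84 lower, and of 221 from 100 to below 200 bases, 112 were higher and 75 lower. Many of the 221 are near-copies of the 5S and U1 RNAs that share reads, so they do not count as separate RNAs. Of the 18 others with 250 to 450 bases, 5 were higher and 10 lower with TMM (median −2.95), and library totals gave 8 higher, a smaller share than over all genes, and 8 lower (median −0.18). The higher ones besides the 3 were Rn7s1, Rn7s2, Gm26461, Gm24514 and Rprl2, and the lower ones include Rn7sk at 331 bases and the Cajal body RNA Scarna2 at 414 bases, which had no count in exosomes against 297 and 282 in tumour. RNAs of like length were thus found on both sides. Here too the genes are not all separate RNAs, as Rn7s1 and Rn7s2 share reads and Rprl2 may share them with Rpph1. Of the lower ones, Scarna2, Gm22009 and Gm23973 had no exosome count and entered the test through tumour alone. The numbers on each side are therefore not weighed against each other. The libraries were cut from a gel after amplification, and the part that fragment length has in these values was not tested.

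**Figure D4:**
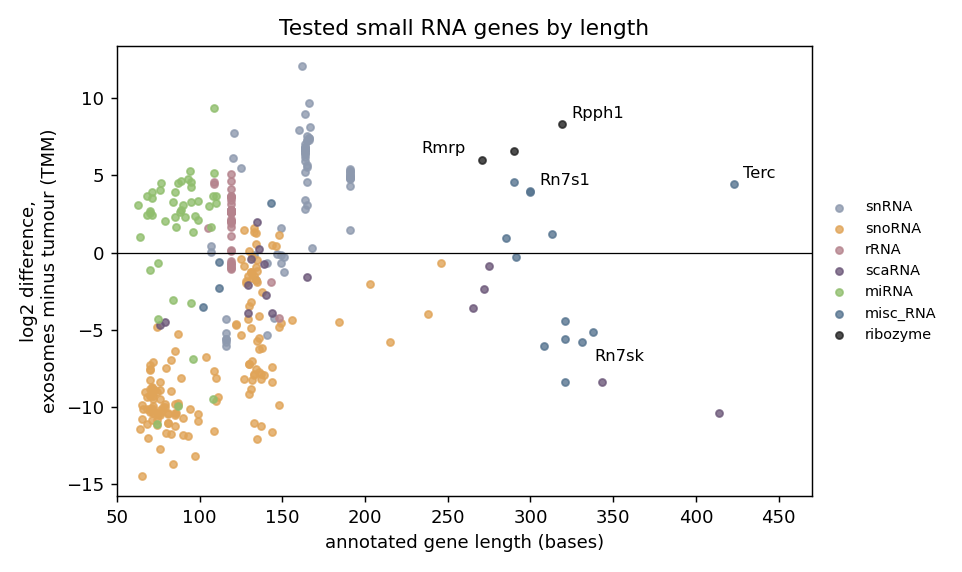
Log2 difference, exosomes minus tumour (TMM), of tested small RNA genes against annotated gene length in bases, coloured by biotype. Rpph1 at 8.34, Rmrp at 5.98 and Terc at 4.47 lie above 0, and Rn7sk, of like length, lies at −5.81.

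The tested genes closest to each RNA in pattern were found by Euclidean distance over the 4 libraries, on TMM-scaled log2 CPM with a prior count of 2, centred on each gene's mean, with near-identical copies taken once. The prior count sets the values of libraries with few or no counts, so the distance of a gene that is at or near 0 in tumour is no measure of a like fold. For Rpph1 they were Gm22155 (distance 0.472), 93.1% identical to the U1 RNA Rnu1a1, n-TStga1 (0.783), and Rmrp (2.35). By its symbol n-TStga1 is a nuclear serine transfer RNA gene, although the annotation lists it as a miRNA gene. Gm22155 had 147 and 117 counts in exosomes and none in tumour, so that its place rests on the prior count. The gene n-TStga1 had 1694 and 1075 counts in exosomes and 18 and 11 in tumour, with a log2 difference of 9.37 against 8.34 for Rpph1. For Rmrp they were Gm25587, 91.6% identical to Rnu1a1 (0.338), Gm23444, 99.5% identical to the U2 RNA Rnu2-10 (0.589), and the unnamed locus Gm37672 (0.925). Gm25587 had 31 and 20 counts in exosomes and none in tumour, and Gm37672 had 24 and 16 in exosomes and 2 and 0 in tumour, so that both places rest on the prior count. Gm23444 had 6601 and 4006 counts in exosomes and 1097 and 673 in tumour, with a log2 difference of 5.41 against 5.98 for Rmrp. For Terc they were the noncoding locus 1700030N03Rik (0.185), Gm22042, 95.8% identical to Rnu1a1 (0.342), and Gm24089, 89.9% identical to the 5S ribosomal RNA gene n-R5s33 (0.349). 1700030N03Rik had 13 and 16 counts in exosomes and 1 and 1 in tumour, and its fitted log2 difference was 6.41 against 4.47 for Terc, so its small distance also rests on the prior count. Gm22042 had 260 and 257 counts in exosomes and 95 and 58 in tumour, with a log2 difference of 4.59, and Gm24089 had 871 and 862 in exosomes and 335 and 200 in tumour, with 4.55. Copies of U1 and 5S share reads, so values of the single copies are uncertain.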

How the data were processed

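Adaptor ligation, amplification and a gel cut preceded sequencing of RNA from 2 exosome and 2 tumour samples, per the labels' protocols. The deposited counts are whole numbers per gene without normalization. FPKM values, also deposited, equal the count scaled to gene length and library total. The submitters' processing notes name TopHat2 2.0.9, Cufflinks 2.1.1, Cuffdiff and build GRCm38.p4. How reads were assigned to genes, by strand or with several matches, is not given in the sources used here. Symbols came from GENCODE M21 and matched 46574 of 47069 gene IDs.

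Counts were fitted over the whole table with edgeR 4.0.16 (R 4.3.3): filterByExpr (minimum count 10, minimum total 15), TMM, and the quasi-likelihood test (two-sided, group only). Benjamini-Hochberg adjustment ran over 1442 genes at 0.05. The SE is the absolute difference divided by the square root of F. The fit was tested on simulated data. Near-copies were found with blastn 2.17.0 (at least 80% identity over at least 50% of the shorter sequence). Alternatives covered DESeq2 1.42.0, limma 3.58.1 on log2(FPKM + 1) and log2(FPKM + 0.1), other scalings and filters, thinned tumour libraries, a replicate block, and each library left out.

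The members and lists were chosen with earlier results of these data known. Named genes were the members, their near-copies, neighbours, up to 3 leading genes of each protein list, the structured RNAs and the 3 nearest in pattern. Snora57, Scarna2, Gm26461, Gm24514, Tert, Vim and other single marker genes lie outside that rule and were named after their values were seen.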

Additional observations from a re-analysis of the deposited data

How the results depend on the processing

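Rpph1, Rmrp and Terc kept their direction and their call under all 15 alternatives run, with log2 differences of 5.99 to 11.53, 3.60 to 9.18 and 2.21 to 7.68. With each library left out in turn they were 5.99 to 8.66, 3.60 to 6.19 and 2.21 to 4.77. With no filter on low counts they were 7.16, 4.80 and 3.28. The numbers of genes called depend on the scaling and the filter. Genes higher and lower in exosomes were 230 and 318 as reported, 920 and 166 with library totals, 1010 and 148 with totals without Rpph1, 818 and 179 with totals without small RNA biotypes, 830 and 171 by limma on log2(FPKM + 1), and 977 and 161 on log2(FPKM + 0.1). These settings tested 1442 genes each, or 1440 with totals without small RNA biotypes. Lower calls were 610 of 14421 genes tested with no filter and 121 of 311 with thinned tumour libraries. The larger count is thus the smaller share. With a library left out, 82 to 189 genes were higher and 190 to 319 lower, and fewer genes are tested without a tumour library. Other causes were not tested. With the replicate block the differences were 8.31, 5.98 and 4.44, with 244 genes higher and 345 lower. The labels share only a number between groups, and same-numbered libraries did not deviate together (correlation −0.02 over genes). The lone library of an arm is assumed to vary like the others. Depth limits Terc most, with 53 to 217 counts in a library.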
